A study of Mus musculus with 12 samples.

Results

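The 37 genes described here copy the genome or start its copying, and were chosen by name from the textbook machinery of DNA replication and S phase. All 37 symbols matched 1 Ensembl identifier each among the 53647 genes of the count tables, and all 37 passed the filter on low counts that left 14863 genes for testing. By role, 12 load and activate the replicative helicase, 13 are polymerase subunits, the sliding clamp, its loaders and other fork proteins, 5 supply nucleotides, 3 restore chromatin behind the fork and 4 act at entry into S phase.

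As background, origins are prepared in G1, when CDC6 and CDT1 help the origin recognition complex to place the ring of MCM2 to MCM7 on DNA. In S phase the ring is activated by CDC45, the GINS complex and MCM10, and polymerases then follow it while PCNA, loaded by replication factor C, holds them on the template. Many of these genes are transcribed by E2F factors at the end of G1, so their mRNA level is widely read as a measure of how many cells are cycling. Activation of the STING pathway, an innate response to cytosolic DNA, is best known for type I interferon induction.

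The study measured mRNA of mouse cells by RNA sequencing in 12 libraries, 2 for each of 6 groups, numbered as preparation 1 and preparation 2. The labels name DC2.4, an immortalized dendritic cell line, and 4T1, a breast tumour line, both wild type. Cells of each line received uniSTING mRNA, which encodes what the series title calls a mimic of STING, or Mock mRNA, which encodes the fluorescent protein EGFP. In the last 2 groups, labelled DC2.4, extracellular vesicles from 4T1 cells given uniSTING (EXOuniSTING) or Mock (EXOmock) were applied for 24 h. The labels give the mRNA delivery as a transfection reagent or lipid nanoparticles without saying which was used where. They give no duration for the mRNA treatment and do not say that the preparations were separate cultures, so the p-values rest on how much 2 libraries of a group differ, possibly for technical reasons alone.

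Levels are given in CPM, a gene's count scaled to a common library total. The 8 mRNA libraries went against their labels in cell markers, while the 4 vesicle libraries, labelled DC2.4, carried leukocyte markers. The summed level of 10 epithelial markers was 5175 to 5444 CPM in the 4 mRNA libraries labelled DC2.4 and 0.192 to 6.16 CPM in the other 8. The summed level of 10 leukocyte markers was 8.53 to 30.5 CPM in those 4 libraries and 6819 to 12015 CPM in the other 8, and Itgam had 0 counts in each of the 4. The groups are therefore called by their labels throughout, as the DC2.4-labelled pair and the 4T1-labelled pair for the mRNA groups and the vesicle pair for the others, and no value is assigned to a line. The cell line labels of the mRNA libraries may be exchanged, in which case the values given for the DC2.4 label are those of the tumour line and the values given for the 4T1 label those of the dendritic line. Preparation 1 also held transcripts of other tissues (Ins2 with 171 to 2117 counts per library, against 0 in every preparation 2 library). Total counts per library were 14059040 to 25975658, and 3 counts, the floor used here, correspond to 0.115 to 0.213 CPM, below the level of every one of the 37 genes.

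RefSeq windows (GRCm38.p6) running from 250 bases before to 50 bases after a transcription start were at hand for 31 of the 37 genes. TTTNNCGC, an E2F-type element in which N is any base, was searched on both strands and lay in the window of 13 of these 31 genes (41.94%), against 5.93% of all 27025 genes with a window. CCAAT was found for 18 of the 31 genes (58.06%, against 41.06% of all) and TTTGAA, the CHR element of mitotic genes, for 3 (9.68%, against 20.23%). Of the 20 matches to TTTNNCGC in these windows, 1 overlapped a match to CCAAT or TTTGAA. By role it was found for 6 of 9 helicase genes with a window, 4 of 11 fork genes and 1 gene of each other role. A gene with several windows, such as Mcm7, was counted once, and the window shown for Mcm7 is the one that holds the element. The 4 windows below belong to subunits of the MCM ring and hold the element. The Mcm2 window held no match, and no window was at hand for Mcm4. Each is written 5′ to 3′ in the direction of transcription with matches to TTTNNCGC on either strand in capitals. A match is a string of letters and was not tested as a binding site.
Mcm3, chr1:20820263-20820562, minus strand: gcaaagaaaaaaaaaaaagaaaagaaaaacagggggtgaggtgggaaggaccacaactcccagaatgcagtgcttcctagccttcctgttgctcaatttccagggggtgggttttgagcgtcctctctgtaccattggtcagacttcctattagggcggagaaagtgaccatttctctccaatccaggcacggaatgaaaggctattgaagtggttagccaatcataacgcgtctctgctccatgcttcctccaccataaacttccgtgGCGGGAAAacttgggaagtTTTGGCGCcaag
Mcm5, chr8:75109259-75109558, plus strand: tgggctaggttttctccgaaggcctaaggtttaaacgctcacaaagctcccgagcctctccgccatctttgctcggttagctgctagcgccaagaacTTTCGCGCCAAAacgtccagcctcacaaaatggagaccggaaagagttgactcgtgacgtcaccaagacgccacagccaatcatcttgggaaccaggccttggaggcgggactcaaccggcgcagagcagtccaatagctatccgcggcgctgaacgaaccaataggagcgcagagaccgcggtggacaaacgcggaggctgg
Mcm6, chr1:128359656-128359955, minus strand: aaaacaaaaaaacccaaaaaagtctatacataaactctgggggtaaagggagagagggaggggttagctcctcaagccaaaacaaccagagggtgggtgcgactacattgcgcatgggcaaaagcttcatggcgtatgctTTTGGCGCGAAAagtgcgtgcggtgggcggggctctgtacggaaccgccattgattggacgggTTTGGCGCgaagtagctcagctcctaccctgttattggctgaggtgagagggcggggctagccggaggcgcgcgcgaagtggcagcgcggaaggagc
Mcm7, chr5:138171834-138172133, minus strand: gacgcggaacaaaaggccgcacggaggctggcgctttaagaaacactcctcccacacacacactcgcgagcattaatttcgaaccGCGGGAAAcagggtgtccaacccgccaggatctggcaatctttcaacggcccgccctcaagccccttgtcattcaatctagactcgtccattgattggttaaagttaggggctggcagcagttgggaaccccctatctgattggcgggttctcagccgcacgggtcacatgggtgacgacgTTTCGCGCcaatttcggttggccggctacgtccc
The Mcm5 and Mcm6 windows each hold a pair of overlapping matches on opposite strands upstream of the start, and Mcm6 holds one more closer to it. In the Mcm3 window both matches lie after the start, and Mcm7 has one on each side of it.

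The replication genes moved differently in the 3 pairs. Of the 37 genes 30 rose and 2 fell (Rfc1 and Rfc2) with uniSTING mRNA in the 4T1-labelled pair, where 12.6% of all genes tested rose and 15.7% fell. In the DC2.4-labelled pair 13 rose and 15 fell, where 20.8% of all genes rose and 20.9% fell. In the vesicle pair 5 rose and 4 fell, where 7.96% of all genes rose and 8.14% fell. These calls are from edgeR's quasi-likelihood test at an adjusted p below 0.05, and 0 of the 37 genes reached a 2-fold change in any pair (3.65%, 1.81% and 1.2% of all genes did in the DC2.4-labelled, 4T1-labelled and vesicle pairs). In bulk RNA, fewer cells in S phase and less of these mRNAs per cell cannot be told apart.

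The median log2 fold change of the 37 genes was 0.18 in the 4T1-labelled pair, against -0.01 over all genes. It was -0.0034 in the DC2.4-labelled pair and -0.02 in the vesicle pair, against 0.00 over all genes in both. Every called gene had both treated libraries on one side of both control libraries, a separation that 69.1% of all genes showed in the DC2.4-labelled pair, 63.6% in the 4T1-labelled pair and 56.2% in the vesicle pair. Within preparation 1 and within preparation 2 taken alone, all 28, 32 and 9 genes called in these pairs had the called direction. The separation of the libraries all but fixes this outcome in advance, so it adds no further support to the calls.

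Of the 10 leukocyte markers, 1 rose and 5 fell in the 4T1-labelled pair and 3 rose and 1 fell in the vesicle pair, while 3 of the 10 epithelial markers rose in the DC2.4-labelled pair, and their part in the replication gene counts was not tested. The marker counts are to be read against the shares of all genes given above.

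The counts depend on the tool and on single libraries. With DESeq2 19 of the 37 genes rose in the 4T1-labelled pair (5.74% of all genes), 7 rose in the DC2.4-labelled pair (10.7% of all) and 0 fell in the vesicle pair (3.54% of all). Under the 4T1 label 19 rose without preparation 1 of Mock (8.55% of all genes). There, 1 fell without either Mock library (11.6% and 9.55% of all) and 0 without preparation 2 of uniSTING (10.7% of all). Without preparation 1 of DC2.4-labelled Mock or of DC2.4-labelled uniSTING, 8 rose in that pair (16.2% and 15.9% of all genes). In the vesicle pair 3 rose and 0 fell without preparation 1 of EXOmock, 2 rose and 1 fell without preparation 2 of EXOmock, and 1 rose and 1 fell without either EXOuniSTING library, where 3.89% to 4.94% of all genes rose and 4.45% to 4.91% fell in these 4 settings.

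**Figure D1:**
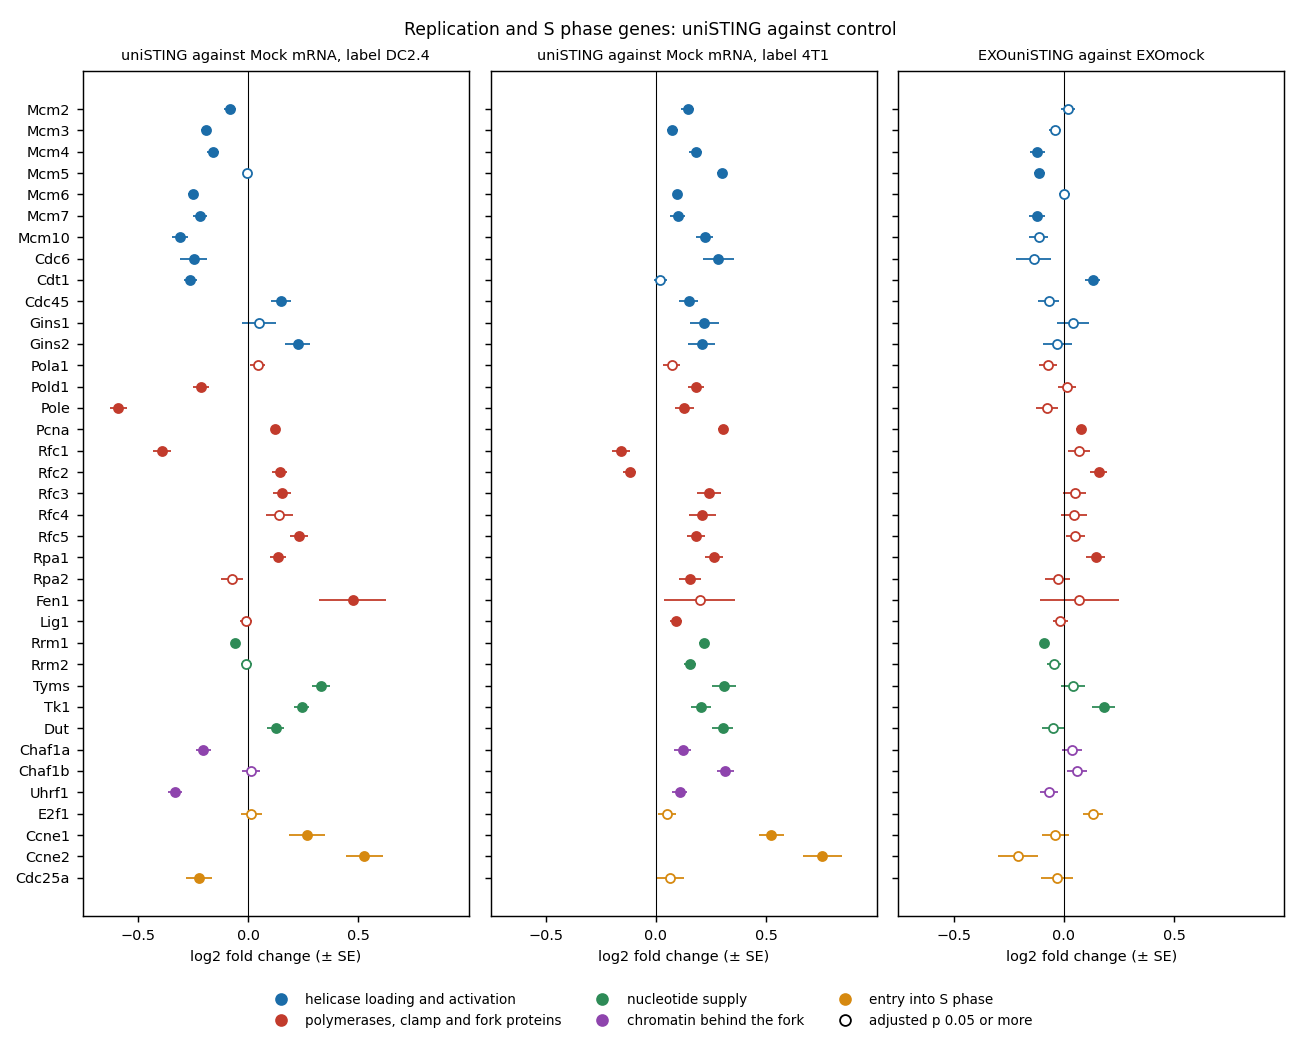
Log2 fold change with its standard error for each of the 37 genes in the 3 pairs, with 2 libraries per group. Filled points passed an adjusted p below 0.05 in edgeR's quasi-likelihood test and colours give the role. In the 4T1-labelled pair 30 points are filled to the right of 0, while the DC2.4-labelled pair has 13 to the right and 15 to the left.

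Helicase loading and activation genes mostly went opposite ways in the mRNA pairs. In the DC2.4-labelled pair 8 of the 12 fell and 2 rose (median log2 fold change -0.18), and in the 4T1-labelled pair 11 rose and 0 fell (median 0.16). In the vesicle pair 3 fell and 1 rose. Of all genes tested, 20.9% fell and 20.8% rose in the DC2.4-labelled pair. These shares were 15.7% and 12.6% in the 4T1-labelled pair and 8.14% and 7.96% in the vesicle pair.

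Mcm6, a subunit of the helicase ring, stood at 411 and 412 CPM in the DC2.4-labelled Mock libraries and at 339 and 344 CPM in the uniSTING libraries. Both uniSTING libraries were below both Mock libraries, with a log2 fold change of -0.25 ± 0.021 (SE), adjusted p = 3.31e-07 in edgeR's test. Mcm6 went the other way in the 4T1-labelled pair, from 236 and 236 CPM to 257 and 258 CPM (log2 fold change 0.10 ± 0.022 (SE), adjusted p = 0.00423, edgeR). The vesicle libraries overlapped, with 179 and 178 CPM under EXOmock and 180.4 and 177 CPM under EXOuniSTING. Mcm3, another ring subunit, fell from 364 and 364 to 317 and 313 CPM in the DC2.4-labelled pair (log2 fold change -0.19 ± 0.022 (SE), adjusted p = 7.81e-06, edgeR). It rose from 161 and 158 to 169 and 173 CPM in the 4T1-labelled pair, the smallest called rise of the ring genes (0.07 ± 0.025 (SE), adjusted p = 0.0359, edgeR).

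Mcm5 was the one ring gene without a call in the DC2.4-labelled pair. Its level was 427 and 432 CPM in the DC2.4-labelled Mock libraries and 419 and 426 CPM with uniSTING, with both uniSTING libraries just below both Mock libraries and no called difference (log2 fold change -0.0034 ± 0.021 (SE), adjusted p = 0.944, edgeR). It rose in the 4T1-labelled pair from 146 and 143 to 179.6 and 183 CPM, the largest rise of the ring genes (0.30 ± 0.024 (SE), adjusted p = 1.03e-06, edgeR). In the vesicle pair it fell from 154 and 153 to 141 and 143 CPM (-0.11 ± 0.026 (SE), adjusted p = 0.0107, edgeR).

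Mcm2, Mcm4 and Mcm7 fell in the DC2.4-labelled pair and rose in the 4T1-labelled pair. Mcm7 had 336 and 321 CPM in the DC2.4-labelled Mock libraries against 281 and 275 CPM with uniSTING (log2 fold change -0.22), and 192 and 187 against 201 and 211 CPM under the 4T1 label (0.10). Mcm4 had 238 and 235 against 204 and 213 CPM in the first pair (-0.16) and 131 and 131 against 150.0 and 153 CPM in the second (0.18). Both genes also fell in the vesicle pair, with log2 fold changes of -0.12 for Mcm7 and -0.12 for Mcm4. Mcm2 shows the smallest fall of the first pair among the called ring genes, from 279 and 275 to 257 and 259 CPM (-0.08 ± 0.028 (SE), adjusted p = 0.026, edgeR). Its sign did not hold when the trend of fold change with gene length, described further on, was removed (0.015, adjusted p = 0.706, edgeR).

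Per kilobase of mRNA, the 6 ring genes, whose proteins form one complex with a single copy of each, were not equally abundant. In the DC2.4-labelled Mock libraries they ran from 65.9 ± 0.71 CPM per kb for Mcm4 to 141 ± 0.17 CPM per kb for Mcm6 (mean ± SD, n = 2). In the 4T1-labelled Mock libraries the lowest was Mcm4 at 36.6 ± 0.094 and the highest Mcm6 at 81.1 ± 0.010 CPM per kb. Mcm5 held the second place under the DC2.4 label with 127 ± 1.1 CPM per kb and stood near Mcm2 under the 4T1 label with 42.8 ± 0.77 CPM per kb, against 42.5 ± 0.76 for Mcm2.

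**Figure D2:**
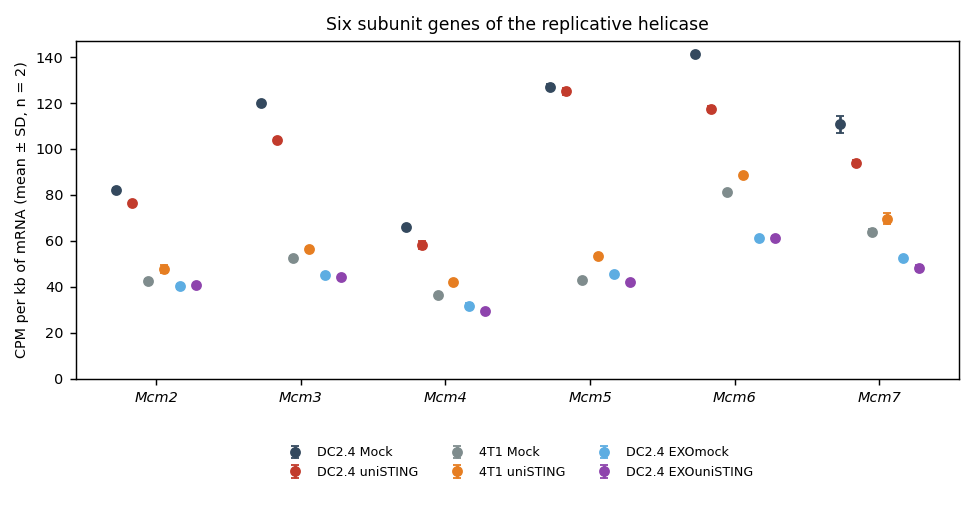
CPM per kilobase of the longest principal mRNA for the 6 genes of the MCM ring, as group means with the SD of 2 libraries. Mcm6 is the highest and Mcm4 the lowest in both Mock groups, and the DC2.4-labelled mRNA groups lie above the other 4 for each gene.

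The licensing factors CDC6 and CDT1 load the ring. Cdc6 fell in the DC2.4-labelled pair from 57.2 and 56.6 to 46.9 and 47.7 CPM (log2 fold change -0.25 ± 0.061 (SE), adjusted p = 0.00457, edgeR) and rose in the 4T1-labelled pair from 24.1 and 22.2 to 29.0 and 28.3 CPM (0.28 ± 0.070 (SE), adjusted p = 0.0083, edgeR). Cdt1 fell in the first pair from 199.9 and 203 to 160.2 and 171 CPM (-0.26 ± 0.030 (SE), adjusted p = 6.81e-06, edgeR). The call was missed in the 4T1-labelled pair, with 166 and 163 CPM under Mock and 171 and 169 CPM with uniSTING (log2 fold change 0.02). With vesicles Cdt1 rose from 151 and 157 to 169 and 168 CPM (0.13 ± 0.032 (SE), adjusted p = 0.0139, edgeR), which makes it one of 2 genes, with Rfc2, that rose with vesicles and fell in one mRNA pair.

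Mcm10, which helps to activate the loaded helicase, fell from 96.2 and 96.5 to 77.1 and 76.3 CPM in the DC2.4-labelled pair (-0.31 ± 0.036 (SE), adjusted p = 8.15e-06, edgeR). It rose under the 4T1 label from 58.7 and 54.4 to 66.7 and 67.2 CPM (0.22 ± 0.039 (SE), adjusted p = 0.000697, edgeR). As fitted, the partners of the ring in the active helicase did not follow it downwards in the DC2.4-labelled pair. Cdc45 rose there by 0.15 ± 0.046 (log2, SE) and Gins2 by 0.23 ± 0.057, and Gins1 had a log2 fold change of 0.05 that was not called. With the length trend removed, Gins2 kept its call (0.22, adjusted p = 0.00777, edgeR). Cdc45 (0.11) and Gins1 (-0.15) were then not called (adjusted p = 0.0748 and 0.123, edgeR). All 3 rose in the 4T1-labelled pair, with log2 fold changes of 0.15 for Cdc45, 0.22 for Gins1 and 0.21 for Gins2. The Gins2 counts are uncertain because 67.3% of its exonic bases overlap Gse1 on the opposite strand, and Gse1 itself fell in both mRNA pairs (log2 fold changes of -0.79 and -0.19).

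**Figure D3:**
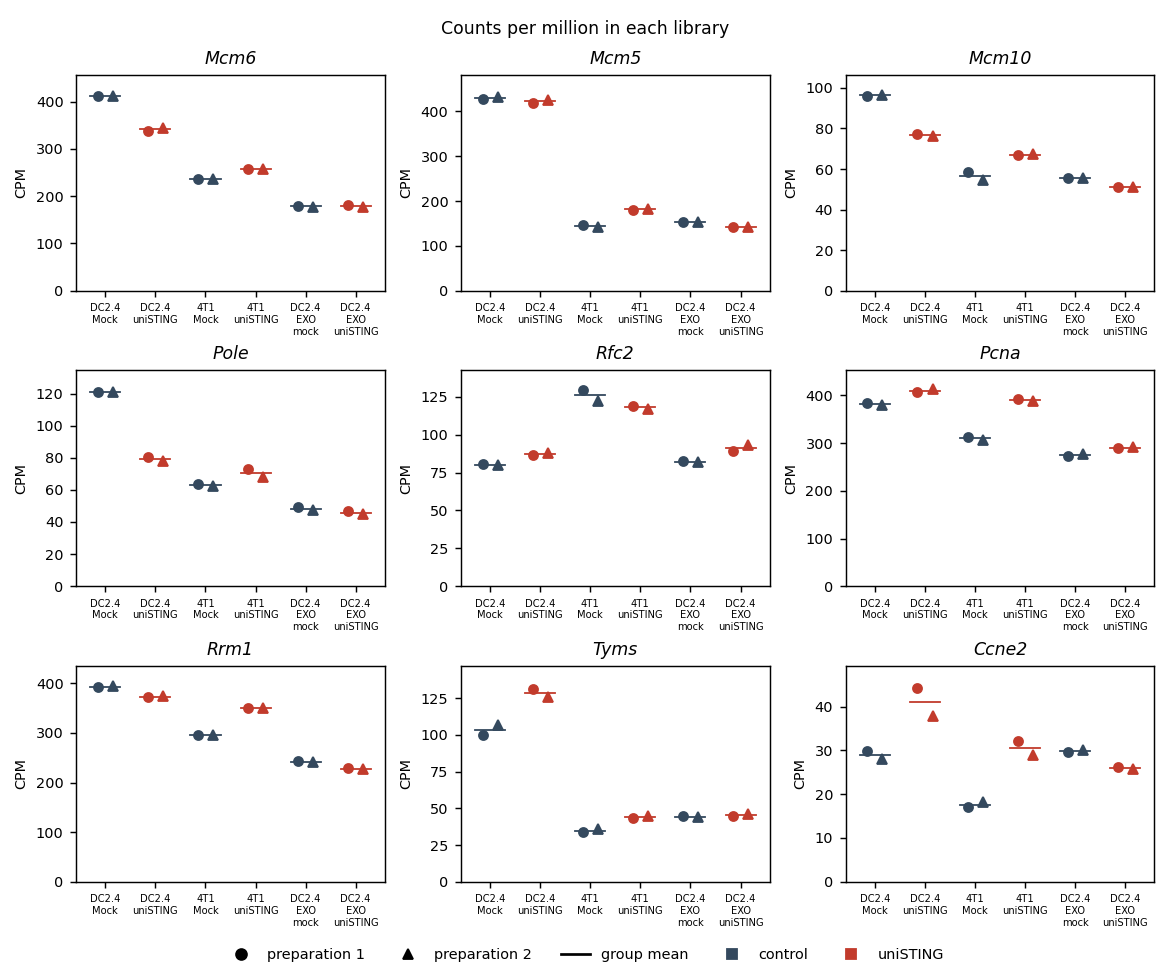
CPM of 9 replication genes in each of the 12 libraries, by labelled group. Circles are preparation 1 and triangles preparation 2, lines are group means, dark blue marks control groups and red marks uniSTING groups. Mcm6, Mcm10, Pole and Rrm1 are lower with uniSTING mRNA in the DC2.4-labelled pair and higher in the 4T1-labelled pair, and Rfc2 is the reverse.

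Among polymerase, clamp and fork genes, 6 of 13 rose and 3 fell in the DC2.4-labelled pair (median log2 fold change 0.12). There, 20.8% of all genes rose and 20.9% fell. In the 4T1-labelled pair 9 rose and 2 fell (median 0.18), where 12.6% of all genes rose and 15.7% fell. In the vesicle pair 3 rose and 0 fell, where 7.96% of all genes rose and 8.14% fell.

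Pole, the catalytic subunit of the leading-strand polymerase epsilon, had the largest fall of the 37 genes in any pair. Its level was 121 and 121 CPM in the DC2.4-labelled Mock libraries and 80.7 and 78.1 CPM with uniSTING, so the groups were far apart (log2 fold change -0.59 ± 0.039 (SE), adjusted p = 2.97e-08, edgeR). Pole rose under the 4T1 label from 63.7 and 62.4 to 73.1 and 67.8 CPM (0.13 ± 0.042 (SE), adjusted p = 0.0342, edgeR). Pold1, the catalytic subunit of polymerase delta, had the same contrast: it fell from 111 and 107 to 89.5 and 95.3 CPM in the first pair (-0.21) and rose from 109.6 and 110.5 to 125 and 129 CPM in the second (0.18). Pola1, the catalytic subunit of the priming polymerase alpha, was called in none of the 3 pairs as fitted (log2 fold changes 0.04, 0.07 and -0.07 in the DC2.4-labelled, 4T1-labelled and vesicle pairs). With the length trend removed it was higher in both mRNA pairs (0.19 and 0.12, adjusted p = 0.000437 and 0.0249, edgeR).

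Pcna, the sliding clamp, was one of 3 genes that rose in all 3 pairs, with Rpa1 and Tk1. It went from 384 and 379 to 407 and 412 CPM under the DC2.4 label (0.12 ± 0.021 (SE), adjusted p = 0.00025, edgeR). In the 4T1-labelled pair it went from 312 and 307 to 392 and 387 CPM, with the smallest adjusted p of the 37 genes in that pair (0.30 ± 0.021 (SE), adjusted p = 2.18e-07, edgeR). With vesicles it went from 272 and 277 to 289 and 292 CPM (0.08 ± 0.022 (SE), adjusted p = 0.0261, edgeR). With the length trend removed, the DC2.4-labelled and vesicle calls of Pcna were lost (0.0060 and 0.056 on the log2 scale, adjusted p = 0.868 and 0.1, edgeR). Pcna has a processed copy, Pcna-ps2, that took at most 29 counts in any library.

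The 5 subunits of the clamp loader did not move as one. Rfc1, the large subunit, fell under the DC2.4 label from 168 and 178 to 132 and 129 CPM (-0.39 ± 0.040 (SE), adjusted p = 2.51e-06, edgeR) and under the 4T1 label from 159.7 and 158 to 148 and 143 CPM (-0.16 ± 0.040 (SE), adjusted p = 0.00793, edgeR). It was the one gene of the 37 that fell in both. Rfc3 and Rfc5 rose in both mRNA pairs, with log2 fold changes of 0.16 and 0.23 under the DC2.4 label and 0.24 and 0.18 under the 4T1 label. Rfc4 rose under the 4T1 label by 0.21 and had 0.14 without a call under the DC2.4 label.

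Rfc2 ran against most of the other genes. It rose from 80.4 and 79.8 to 86.8 and 87.7 CPM in the DC2.4-labelled pair (0.14 ± 0.035 (SE), adjusted p = 0.00442, edgeR) and fell from 129.6 and 122 to 119 and 117 CPM in the 4T1-labelled pair (-0.12 ± 0.031 (SE), adjusted p = 0.0106, edgeR). With vesicles it rose from 82.4 and 81.7 to 89.2 and 93.3 CPM, with the smallest adjusted p of the 37 genes in that pair (0.16 ± 0.037 (SE), adjusted p = 0.0103, edgeR). The 4T1-labelled fall was not called with the length trend removed (-0.08, adjusted p = 0.0767, edgeR). Its exons share 15.1% of their bases with Lat2 on the opposite strand, which had 3.14 to 5.20 CPM in the DC2.4-labelled mRNA libraries and 147 to 167 CPM in the other 8, and strand was not used in counting. The part of Lat2 in the Rfc2 values was not tested, and Lat2 was called in none of the 3 pairs (adjusted p = 0.15, 0.675 and 0.0907 in edgeR).

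Rpa1, the large subunit of the single-strand binding complex, rose in the 4T1-labelled pair from 137 and 137 to 163 and 171 CPM (0.26 ± 0.040 (SE), adjusted p = 0.000224, edgeR), and in the other pairs by 0.14 and 0.14 (log2, DC2.4-labelled and vesicle). Rpa2, a smaller subunit, rose under the 4T1 label by 0.15 and had -0.07 without a call under the DC2.4 label. Lig1, the ligase that joins Okazaki fragments, rose by 0.09 under the 4T1 label and had -0.01 without a call under the DC2.4 label. Fen1, the flap nuclease of Okazaki fragment processing, had only 4.2 to 10.5 CPM in the 12 libraries, and 84.2% of its exonic bases overlap 2 other genes. Its rise under the DC2.4 label, from 6.80 and 8.30 to 10.2 and 10.5 CPM (0.47 ± 0.15 (SE), adjusted p = 0.0211, edgeR), is uncertain for that reason, as is its level, since fragments that overlap 2 genes are by default not counted. Smaller overlaps with other genes make Ccne2 (17.4% of exonic bases), Rfc4 (12.7%), Mcm7 (12.6%) and Rfc5 (10.7%) uncertain to that extent. The overlapping genes lie on the opposite strand, except for Mir25 and Mir93 in Mcm7, which had 0 CPM in all 12 libraries.

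Genes of nucleotide supply rose under the 4T1 label without exception, 5 of 5 (median log2 fold change 0.22), while 3 rose and 1 fell under the DC2.4 label. Of all genes, 12.6% rose under the 4T1 label, and 20.8% rose and 20.9% fell under the DC2.4 label. Tyms, which makes thymidylate, went from 100.3 and 106 to 131 and 126 CPM under the DC2.4 label (0.33 ± 0.041 (SE), adjusted p = 1.41e-05, edgeR). In the 4T1-labelled pair it went from 33.7 and 35.7 to 43.4 and 44.5 CPM (0.31 ± 0.053 (SE), adjusted p = 0.000645, edgeR), so that the groups were apart in both pairs. Tk1, which salvages thymidine, rose by 0.24, 0.20 and 0.18 (log2, DC2.4-labelled, 4T1-labelled and vesicle pairs). Dut, which clears dUTP, rose under the 4T1 label from 52.5 and 52.8 to 63.6 and 68.4 CPM (0.30 ± 0.049 (SE), adjusted p = 0.000402, edgeR) and under the DC2.4 label by 0.12.

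The subunits of ribonucleotide reductase, which makes deoxyribonucleotides, both rose under the 4T1 label. Rrm1, the large subunit, rose under the 4T1 label from 295 and 296 to 350.5 and 349.9 CPM (0.22 ± 0.020 (SE), adjusted p = 3.49e-06, edgeR). It fell under the DC2.4 label from 392 and 395 to 372 and 374 CPM (-0.06 ± 0.020 (SE), adjusted p = 0.031, edgeR) and with vesicles from 243 and 241 to 229 and 227 CPM (-0.09 ± 0.022 (SE), adjusted p = 0.0148, edgeR). The DC2.4-labelled fall turned into a rise of 0.15 (log2, adjusted p = 2.14e-05, edgeR) when the length trend was removed, and the vesicle call was lost in that setting (adjusted p = 0.158, edgeR). That setting uses exonic length, 11012 bases for Rrm1, while its longest principal mRNA has 3997. Rrm2, the small subunit, rose under the 4T1 label by 0.16 and stood at 283 and 281 CPM under the DC2.4-labelled Mock and 271 and 282 CPM with uniSTING, groups that overlapped.

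Genes that restore chromatin behind the fork, 3 in number, all rose under the 4T1 label, and 2 fell under the DC2.4 label. Of all genes, 12.6% rose under the 4T1 label and 20.9% fell under the DC2.4 label. Uhrf1, which brings the maintenance methyltransferase to newly copied DNA, fell from 328 and 338 to 262 and 261 CPM under the DC2.4 label (-0.33 ± 0.031 (SE), adjusted p = 9.55e-07, edgeR) and rose from 169 and 168 to 178 and 191 CPM under the 4T1 label (0.11 ± 0.033 (SE), adjusted p = 0.0275, edgeR). Chaf1b, a subunit of the histone chaperone CAF-1, rose from 64.4 and 67.2 to 83.1 and 84.1 CPM under the 4T1 label (0.31 ± 0.039 (SE), adjusted p = 4.11e-05, edgeR), and its DC2.4-labelled libraries overlapped. Chaf1a, the large subunit of CAF-1, fell from 119 and 119.6 to 99.4 and 105 CPM in the first pair (-0.20) and rose from 66.1 and 68.3 to 73.8 and 75.4 CPM in the second (0.12). Its counts are uncertain, since 52.5% of its exonic bases overlap Ubxn6, and the DC2.4-labelled call was lost without the length trend (-0.05, adjusted p = 0.259, edgeR).

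At entry into S phase the E-type cyclins, which activate CDK2, had the largest rises of the 37 genes in the 4T1-labelled pair. Ccne2 went from 17.1 and 18.2 to 32.2 and 28.9 CPM under the 4T1 label (0.75 ± 0.089 (SE), adjusted p = 2.75e-05, edgeR) and from 29.8 and 27.9 to 44.4 and 37.9 CPM under the DC2.4 label (0.53 ± 0.083 (SE), adjusted p = 0.000137, edgeR). With vesicles its 2 treated libraries were below the controls, at 26.1 and 25.8 against 29.6 and 30.2 CPM, without a call (-0.21 ± 0.090 (SE), adjusted p = 0.143, edgeR). Ccne1 went from 34.6 and 36.1 to 52.6 and 51.3 CPM under the 4T1 label (0.52 ± 0.057 (SE), adjusted p = 1.37e-05, edgeR) and from 9.37 and 9.48 to 11.7 and 10.8 CPM under the DC2.4 label (0.27 ± 0.083 (SE), adjusted p = 0.021, edgeR), a pair with far lower levels. Cdc25a, a phosphatase that activates CDK2, fell under the DC2.4 label (-0.22 ± 0.057, log2, SE) and was not called elsewhere. E2f1, a transcription factor of many of these genes, was called in none of the 3 pairs (log2 fold changes 0.01, 0.05 and 0.13 in the DC2.4-labelled, 4T1-labelled and vesicle pairs), with 49.9 and 49.8 CPM in the DC2.4-labelled Mock libraries and 48.6 and 50.5 CPM with uniSTING.

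The difference between the responses of the 2 mRNA pairs was tested in the same model. For 21 of the 37 genes the log2 response was higher under the 4T1 label than under the DC2.4 label, and for 1, Rfc2, it was lower, where 15.1% of all genes were called higher and 16% lower (median difference 0.23 for the 37 genes and -0.01 for all). Pole had the smallest adjusted p, with a difference of 0.72 ± 0.057 (SE), adjusted p = 4.27e-07 in edgeR's test. Mcm6 followed with 0.35 ± 0.030 (SE), adjusted p = 1.06e-06, Mcm10 with 0.53 ± 0.053 (SE), adjusted p = 3.74e-06 and Rrm1 with 0.28 ± 0.028 (SE), adjusted p = 5.44e-06, all from edgeR. Of the 12 helicase genes 9 differed, the exceptions being Cdc45, Gins1 and Gins2. No called difference was found for Tyms and Tk1, whose differences were -0.02 ± 0.067 and -0.04 ± 0.056 (log2, SE), nor for Ccne1 and Ccne2 (0.26 ± 0.10 and 0.23 ± 0.12). The 2 pairs were labelled as different lines and carried different cell markers, so treatment response and cell identity cannot be told apart in this contrast.

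The vesicle response was also compared with the 4T1-labelled mRNA response, whose libraries carried the same kind of markers. These 2 pairs differ by label, by vesicles against delivered mRNA and possibly by time, which cannot be told apart in this contrast. The vesicle response was lower for 19 of the 37 genes and higher for Rfc1 and Rfc2, where 15% of all genes were called higher and 13% lower (median difference -0.18 for the 37 genes and 0.00 for all). The differences were -0.41 ± 0.036 (SE), adjusted p = 2.14e-06 for Mcm5, -0.31 ± 0.030 (SE), adjusted p = 5.35e-06 for Rrm1 and -0.96 ± 0.13 (SE), adjusted p = 7.34e-05 for Ccne2, each from edgeR. With DESeq2 12 of the genes were lower (6.25% of all genes), and 13 to 18 were lower when 1 library was left out (9.69% to 11.1% of all). Then 1 gene, in place of 2, was called higher without preparation 2 of the 4T1-labelled uniSTING group, preparation 1 of EXOmock or preparation 2 of EXOuniSTING (11.4% to 12.2% of all).

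Base levels differed between the 2 Mock groups. Of the 37 genes, 31 were lower under the 4T1 label and 5 were higher, where 42.4% of all genes were lower and 40.5% higher. A difference of 2-fold or more was found for 11 of the 37 (45.8% of all genes), and the median was -0.85 on the log2 scale against -0.03 over all genes. The largest deficit under the 4T1 label was that of Dut (-1.72 ± 0.044, log2, SE), followed by Mcm5 (-1.65 ± 0.023), Tyms (-1.65 ± 0.048) and Rfc3 (-1.53 ± 0.048). The 5 higher genes were Ccne1 (1.83 ± 0.072), E2f1 (0.67 ± 0.044), Rfc2 (0.57 ± 0.034), Gins1 (0.55 ± 0.073) and Cdc45 (0.11 ± 0.046), of which 4 remained with upper-quartile scaling. Ccne1 thus had 34.6 and 36.1 CPM where the DC2.4-labelled Mock libraries had 9.37 and 9.48.

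Between the 2 control groups with leukocyte markers, EXOmock and the 4T1-labelled Mock, 20 genes were lower under EXOmock and 6 higher, where 27.6% of all genes were lower and 26.1% higher. Rfc1 and Uhrf1 were the furthest below, with differences of -0.85 ± 0.045 and -0.80 ± 0.038 (log2, SE). Ccne2, Rfc4, Rfc3, Tyms, Dut and Mcm5 were higher, with log2 differences from 0.76 for Ccne2 to 0.09 for Mcm5. These groups differ by label, by vesicles against transfected mRNA and possibly by time, which cannot be told apart.

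Summed over the 37 genes, the level was 5990 ± 19 CPM in the DC2.4-labelled Mock libraries and 5646 ± 22 CPM with uniSTING (mean ± SD, n = 2). Under the 4T1 label the sum was 3741 ± 10.1 CPM with Mock and 4255 ± 31 CPM with uniSTING. In the vesicle pair it was 3218 ± 3.9 CPM and 3219 ± 3.0 CPM. Helicase genes alone went from 2522 ± 10.3 to 2245 ± 12 CPM under the DC2.4 label, while nucleotide genes went from 1115 ± 10.6 to 1155 ± 6.5 CPM. The highest group mean was in a DC2.4-labelled mRNA group for 29 of the 37 genes, 18 of them under Mock and 11 with uniSTING. A principal component analysis of the 37 genes put 88.2% of the variance on a first component that separates the 4 DC2.4-labelled mRNA libraries from the other 8. Of all genes tested, 40.5% were higher and 42.4% lower under the 4T1 label between the 2 Mock groups. The order of group means and the components were not computed for other genes, so neither is shown to be particular to these 37.

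**Figure D4:**
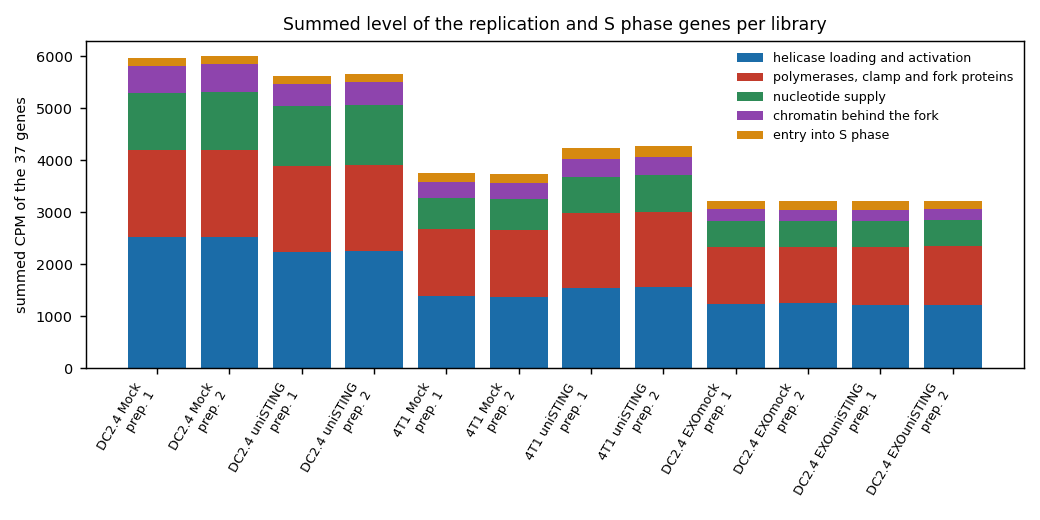
Summed CPM of the 37 genes in each of the 12 libraries, stacked by role. The 4 DC2.4-labelled mRNA libraries stand highest, the sum is lower with uniSTING in that pair and higher in the 4T1-labelled pair, and the 4 vesicle libraries are level.

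Fold changes varied with gene length in these libraries, most under the DC2.4 label. Over 10573 genes (genes share libraries and are no independent replicates) the Spearman correlation of the log2 fold change with exonic length was -0.42 under the DC2.4 label, -0.12 under the 4T1 label and -0.13 with vesicles. The median log2 fold change under the DC2.4 label was 0.26 in the shortest decile of genes and -0.26 in the longest decile. Over the 37 genes, which share libraries and depth, the same correlation was -0.38, -0.27 and -0.10. With the trend removed, 10 genes rose and 13 fell under the DC2.4 label, where 19.7% of all genes rose and 18.7% fell. Of the 28 calls 19 were kept in direction and 1, Rrm1, was turned. The calls of Pole (-0.38), Uhrf1 (-0.33), Rfc1 (-0.32), Cdt1 (-0.32), Mcm3 (-0.22), Tyms (0.40) and Ccne2 (0.49) were kept, and those of Mcm2, Cdc45, Pcna, Fen1, Dut, Chaf1a, Ccne1 and Cdc25a were lost. Calls were gained for Pola1 (0.19), Rpa2 (-0.14) and Rrm2 (-0.09). For the 4T1-labelled pair 31 rose and 1 fell with the trend removed (14.2% and 14% of all genes). There Pola1 was gained and Rfc2 lost, and in the vesicle pair the calls of Pcna and Rrm1 were lost. What the trend stems from was not tested. Exonic length covers all annotated exons of a gene and can exceed its mRNA. For Rrm1 it is 11012 bases, against 3997 in the longest principal transcript. A trend with mRNA length was not tested.

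**Figure D5:**
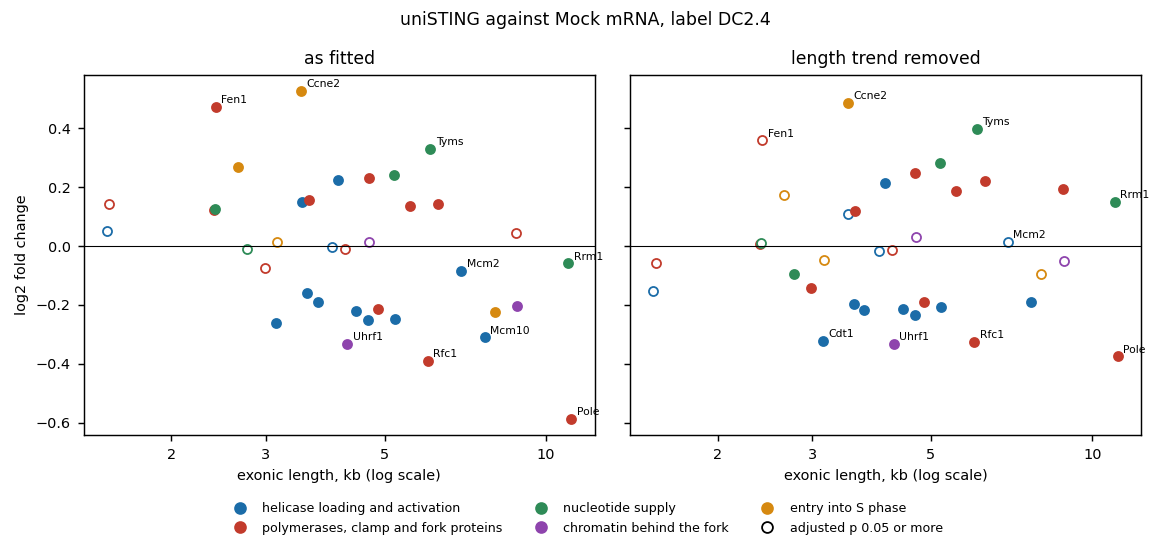
Log2 fold change of the 37 genes in the DC2.4-labelled pair against exonic length in kilobases on a log axis, as fitted (left) and after removing the trend over all genes (right). Filled points passed an adjusted p below 0.05 in edgeR's test. Pole stays the lowest on both sides, while Rrm1, among the longest by exonic length, moves from below 0 to above it.

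The promoter element seen in the sequences above was spread over these responses. Among genes with a window it was found, under the DC2.4 label, for 8 of 13 that fell, 2 of 10 that rose and 3 of 8 not called. For the 4T1-labelled pair it was found for 10 of 25 that rose, 3 of 5 not called and 0 of 1 that fell. Mcm5 and Mcm6, whose windows both hold the overlapping pair, differed under the DC2.4 label as given above. These are descriptions of small counts and no test was made.

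Other genes of replication and the cell cycle, 122 in 7 lists, were read for context, and 119 of them were tested. Of the 119, 42 rose and 9 fell under the 4T1 label, under the DC2.4 label 32 rose and 41 fell, and with vesicles 8 rose and 23 fell. Over all genes tested, 12.6% rose and 15.7% fell under the 4T1 label, and 20.8% rose and 20.9% fell under the DC2.4 label. With vesicles 7.96% of all genes rose and 8.14% fell. The counts of the 7 lists are to be read against these shares. A count near its share is no result about the list. Values of these genes are as fitted, without removal of the length trend, which was strongest under the DC2.4 label. Several genes that fell there are long, such as Mki67 (10061 exonic bases), Cenpf (15433), Cad (8183) and Atr (23629). Some that rose are short, such as Pold4 (1164) and Gmnn (1465), but Shmt2 (3109) and Myc (2717) fell. The part of length in these values was not tested. Origin recognition and licensing genes, 17 in number, had 5 higher and 0 lower under the 4T1 label, among them Gins4, the GINS partner of Gins1 and Gins2 (0.41 ± 0.049 (SE), adjusted p = 2.81e-05, edgeR), Orc6 (0.29) and Recql4 (0.30). Under the DC2.4 label 4 were higher and 3 lower, and Gmnn, the inhibitor of CDT1, rose from 59.8 and 61.7 to 81.0 and 75.2 CPM (0.38 ± 0.063 (SE), adjusted p = 0.000235, edgeR), followed by Orc6 (0.24) and Gins4 (0.23). With vesicles 2 fell, Orc2 (-0.22) and Recql4 (-0.26). Further polymerase and fork genes, 23 in number, had 10 higher and 1 lower under the 4T1 label and 8 higher and 6 lower under the DC2.4 label. Pclaf, which binds PCNA, rose in all 3 pairs (0.44, 0.27 and 0.20 in the DC2.4-labelled, 4T1-labelled and vesicle pairs), and Pold4, the smallest subunit of polymerase delta, rose from 7.94 and 7.53 to 15.0 and 15.8 CPM under the DC2.4 label (1.02), where Rnaseh2c, a subunit of ribonuclease H2, also rose (0.52). Prim1, the primase, and Wdhd1, which links polymerase alpha to the helicase, rose under the 4T1 label (0.42 and 0.35).

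Nucleotide synthesis genes beyond the 5 above had 8 of 16 lower and 3 higher under the DC2.4 label and 7 higher and 1 lower under the 4T1 label. Cad, which starts pyrimidine synthesis, fell from 384 and 391 to 199 and 200.4 CPM under the DC2.4 label (-0.94 ± 0.028 (SE), adjusted p = 1.35e-11, edgeR). It rose from 199.9 and 208 to 241 and 244 CPM under the 4T1 label and fell with vesicles from 147 and 143 to 119 and 122 CPM (0.22 and -0.26). Gart, a purine synthesis enzyme, had the same 3 directions (-0.31, 0.30 and -0.23 in the DC2.4-labelled, 4T1-labelled and vesicle pairs). Dtymk, which phosphorylates thymidylate, rose under the 4T1 label by 0.39. Shmt2, which feeds the folate cycle, fell under the DC2.4 label and with vesicles (-0.36 and -0.16). Of 12 chromatin assembly genes 5 were higher and 0 lower under the 4T1 label, with Rbbp4 (0.22), Hells (0.22) and Nasp (0.21) first by adjusted p, and 6 were higher and 3 lower under the DC2.4 label, led by Hat1 (0.30), Asf1b (0.17) and Ssrp1 (0.08). Asf1b, a histone chaperone, was the 1 that rose with vesicles (0.17).

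Of 26 G1 to S control genes 5 were higher and 5 lower under the 4T1 label. The higher ones were led by Rbl1, a relative of the retinoblastoma protein (0.23), E2f6 (0.26) and Cdk4 (0.09). The 5 lower ones were Ccnd1 (-0.19), Myc (-1.67), Rb1 (-0.22), Cdkn1b (-0.23) and E2f3 (-0.21). The Myc fall was the one call past 2-fold among the 119 genes in that pair and rested on 29 and 51 counts under Mock and 13 and 14 with uniSTING. Under the DC2.4 label 5 were higher and 10 lower, among them Ccnd1, cyclin D1 (-0.43 ± 0.020 (SE), adjusted p = 1.15e-09, edgeR), Cdk6, its kinase partner (-0.58), and Myc, a growth-driving transcription factor (-0.40). Myc had 397 and 392 CPM in the DC2.4-labelled Mock libraries and at most 3.32 CPM in the 8 other libraries. With vesicles 6 were lower and 2 higher, first Ccnd2, cyclin D2, from 196 and 201 to 164 and 161 CPM (-0.29 ± 0.027 (SE), adjusted p = 9.8e-06, edgeR), then Tfdp1, the partner of E2F factors (-0.21), and Ccnd1 (-0.16). Of 11 replication checkpoint genes 4 were lower and 1 higher under the DC2.4 label, where the kinases Atr, Atm and Wee1 fell (-0.56, -0.57 and -0.28). Atm, Wee1 and Atrip rose under the 4T1 label (0.27, 0.17 and 0.25), and Atr, Atm and Rad9a fell with vesicles (-0.32, -0.34 and -0.24).

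Genes of G2 and mitosis had 7 of 14 lower and 5 higher under the DC2.4 label and 6 higher and 1 lower under the 4T1 label. Under the DC2.4 label the proliferation antigen Mki67 fell from 307 and 300.3 to 152 and 162 CPM (-0.93 ± 0.032 (SE), adjusted p = 4.96e-11, edgeR). Cenpf and Cenpe, both kinetochore genes, fell (-0.78 and -0.59), while Aurka and Cdk1, both mitotic kinase genes, rose (0.14 and 0.12). These genes do not stand for their classes. Plk1, another mitotic kinase gene, had 2747 and 3515 counts under Mock and 2321 and 3216 with uniSTING, lower relative to library totals. Bub1, a kinetochore kinase gene, had 2443 and 2936 counts under Mock and 3016 and 4146 with uniSTING, higher relative to library totals. Cdk1 rose in the 4T1-labelled pair from 97.0 and 90.5 to 119 and 122 CPM (0.34 ± 0.031 (SE), adjusted p = 3.42e-06, edgeR), Cdc20 and Aurka rose too (0.22 and 0.22), and Mki67 had -0.08 without a call. With vesicles 5 were lower and 2 higher, first Cdc20, an activator of the anaphase-promoting complex (-0.24 ± 0.031 (SE), adjusted p = 0.00018, edgeR), then Top2a, topoisomerase II alpha (-0.13), and Mki67 (-0.22).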

How the data were processed

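The values used are the whole-number counts per gene in the 12 tables the authors deposited. Per the file headers, read pairs that mapped uniquely were counted over exons by gene with featureCounts 2.0.1 on Ensembl release 103 without a strand option, and per the submitters' processing notes they were aligned with HISAT2 to GRCm39. Exonic lengths come from the same deposited tables. The labels' protocols give 1.0 µg of total RNA per library. The HISAT2 version and any trimming are not given in the sources used here.

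One model over the 12 libraries was fitted by edgeR 4.0.16 (R 4.3.3; 1 mean per group, TMM factors, filterByExpr, quasi-likelihood F test with 6 residual degrees of freedom, Benjamini-Hochberg adjustment over 14863 genes, threshold 0.05). The common biological coefficient of variation was 3.05%. CPM are over deposited totals, and standard errors of fold changes come from the F statistic. Gene symbols were looked up by Ensembl identifier. Levels per kb used the longest principal transcript of GENCODE M21. Alternatives were DESeq2 1.42.0, limma-voom (limma 3.58.1), 2 other scalings, 2 other filters, fits limited to the groups compared, a block for preparation, removal of the length trend, single preparations and leaving out each library. The values of single preparations were log2 CPM on TMM factors with a prior count of 0.5, without a test. The block within each pair was added after the data were seen. The test was tried on simulated counts with known changes.

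The 37 genes, the role lists, the 122 further genes and the tests were chosen with earlier results of these data known. The text names, per pair, the 8 of the 37 with the smallest adjusted p whose libraries did not overlap, every gene called in opposite directions in 2 pairs, 4 genes of the first difference of responses, and up to 3 genes per further list in its more frequent direction, of which 1 is not reported here. Other genes of the 37 are named to account for all. In unstranded counting, fragments that overlap exons of 2 genes are by default counted for neither. The 5 G1 to S genes listed as lower under the 4T1 label were named after their values were seen, as were Plk1 and Bub1. Figures used Python 3.11.15 and matplotlib 3.10.9.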

Additional observations from a re-analysis of the deposited data

Results flagged for a closer look

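The responses of single genes that differed between pairs in the interaction test (edgeR, adjusted p below 0.05) are listed with their difference on the log2 scale, for a closer look.

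A higher signed log2 fold change can be a smaller fall, as for Rfc1 (-0.16 under the 4T1 label, -0.39 under the DC2.4 label). Between the 4T1-labelled and the DC2.4-labelled mRNA responses, the helicase genes with a higher log2 fold change under the 4T1 label were Mcm2 (0.23), Mcm3 (0.26), Mcm4 (0.34), Mcm5 (0.30), Mcm6 (0.35), Mcm7 (0.32), Mcm10 (0.53), Cdc6 (0.53) and Cdt1 (0.28). Of the fork genes these were Pold1 (0.40), Pole (0.72), Pcna (0.18), Rfc1 (0.23) and Rpa2 (0.23), while Rfc2 (-0.26) was lower. The remaining ones were Rrm1 (0.28), Rrm2 (0.16), Dut (0.18), Chaf1a (0.32), Chaf1b (0.30), Uhrf1 (0.44) and Cdc25a (0.29).

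Between the vesicle response and the 4T1-labelled mRNA response, the helicase genes with a lower log2 fold change with vesicles were Mcm3 (-0.11), Mcm4 (-0.30), Mcm5 (-0.41), Mcm6 (-0.10), Mcm7 (-0.22), Mcm10 (-0.34), Cdc6 (-0.42) and Cdc45 (-0.22). Of the fork genes these were Pold1 (-0.17), Pole (-0.21) and Pcna (-0.22), while Rfc1 (0.23) and Rfc2 (0.28) were higher. The remaining ones were Rrm1 (-0.31), Rrm2 (-0.20), Tyms (-0.27), Dut (-0.35), Chaf1b (-0.26), Uhrf1 (-0.17), Ccne1 (-0.56) and Ccne2 (-0.96).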

How the results depend on the processing

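Under DESeq2, 7 of the 37 genes rose in the DC2.4-labelled pair (13 in edgeR), 19 rose (30) and 1 fell (2) in the 4T1-labelled pair, 0 fell (4) in the vesicle pair, and 12 were lower (19) in the vesicle response than in the 4T1-labelled mRNA response. The DESeq2 shares of all genes were, in the same order, 10.7%, 5.74%, 8.49%, 3.54% and 6.25%. With the length trend removed 1 gene fell in the 4T1-labelled pair (14% of all genes), and under the DC2.4 label Mcm2 and Rrm1, both called as fitted, changed sign to 0.015 and 0.15. Gins1 (-0.15), Rfc4 (-0.06) and E2f1 (-0.05), called in neither setting, also changed sign there. When each library was left out in turn, 8 to 12 rose and 13 fell in the DC2.4-labelled pair, 19 to 24 rose and 0 to 2 fell in the 4T1-labelled pair, 1 to 3 rose and 0 to 1 fell in the vesicle pair, 18 to 21 differed upwards between the mRNA responses, and 13 to 18 were lower and 1 to 3 higher in the vesicle response than in the 4T1-labelled one. Beyond the removed libraries the cause of these shifts was not tested. With the preparation number as a replicate block the counts were 13 and 15, 30 and 2, and 5 and 4 in the 3 pairs (rose and fell), 21 and 1 for the difference of the mRNA responses, and 2 and 18 for the vesicle difference. The shares of all genes were then 21.6% and 21.5%, 13.2% and 16.7%, 8.25% and 8.5%, 15.4% and 16.1%, and 15.5% and 13.5%. With a block within each pair the counts of the 2 differences were 22 and 1 (16.4% and 17.2% of all genes), and 3 and 20 (17% and 15%). The numbers name preparations only; deviations of same-numbered libraries correlated at 0.66, 0.21 and 0.12 within the 3 pairs. The other scalings, limma-voom, both filters and the fit to the compared libraries alone kept each count within 1.5 times. Low counts limit Fen1, and 2 libraries per group limit all calls.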
